A study of Homo sapiens with 16 samples.

Results

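Forced expression of SAM68 was measured in U2OS, a human osteosarcoma cell line, by sequencing of poly(A) RNA. The comparison has 4 of the series' 16 libraries, chosen by their labels alone: 2 from cells that received a SAM68 plasmid and 2 from cells that received a control plasmid. The other libraries of the series hold SAM68 siRNA and its control in the same cell line, used here only beside the plasmid values, and a NORAD knockdown in a second cell line, which is not analysed here. The study asks what SAM68 does in the regulation of Pumilio proteins by the long noncoding RNA NORAD.

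All cells of the comparison were wild-type U2OS, transfected with Lipofectamine 3000 and harvested 48 h later. The SAM68 group received pcDNA3-HA-SAM68, which codes for the mouse protein with an HA tag, and the control group received pcDNA3.1(+), each at 100 ng per 20000 cells. The siRNA groups, also wild-type U2OS, received siRNA against SAM68 or a non-targeting pool at 50 nM for 48 h. The mouse gene limits the design as a measurement, since reads of plasmid RNA count only where they align to the human KHDRBS1 gene. Transfection was transient, and in bulk RNA more cells with the plasmid and more SAM68 RNA per cell cannot be told apart. The labels do not say whether libraries of a group are separate cultures, so the spread behind each p-value may be technical.

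SAM68, which acts as a dimer, is a STAR protein, a family that binds RNA through a single KH domain with conserved flanks. It binds A- and U-rich sequence, chooses alternative exons in transcripts such as CD44 and BCL2L1, and can shift polyadenylation to earlier sites. Src-family kinases phosphorylate it and weaken its RNA binding, which links signalling to splicing. NORAD is a cytoplasmic noncoding RNA that holds many Pumilio proteins, and SAM68 has been studied as a partner in that binding.

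Depth was 14097320 and 22392590 expected counts in the control plasmid libraries and 14562864 and 23910417 in the SAM68 plasmid libraries. Vimentin (VIM), a mesenchymal filament protein, was at 3050 to 3628 CPM (counts after scaling all libraries to one total) in the 4 libraries, and 14 of the 18 mesenchymal and bone markers with a row of their own were expressed well enough to be tested. COL1A2 did not exceed 0.296 CPM and TWIST1 was listed at 0 in all 4. The epithelial keratins KRT8 and KRT18 were present at 314 to 826 CPM, while CDH1 stayed at or below 2.58 CPM. HBB, ALB and CD3E were at 0.

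SAM68 plasmid replicate 1 stood apart from the other 3 plasmid libraries by transcript length. Over the 11129 genes that averaged 5 CPM or more, sorted into 5 length classes, its median log2 level relative to the control plasmid mean was 0.36 for the shortest transcripts and −0.29 for the longest. SAM68 plasmid replicate 2 had −0.06 and 0.06 in the same classes, and the controls stayed between −0.04 and 0.04 throughout. Counting genes that differed more than 2-fold between the libraries of one group gave 186 for the SAM68 plasmid and 45 for the control plasmid, among 11367 genes. Medians of gene lists are therefore also given without single plasmid libraries. RNA quality was not tested.

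**Figure D1:**
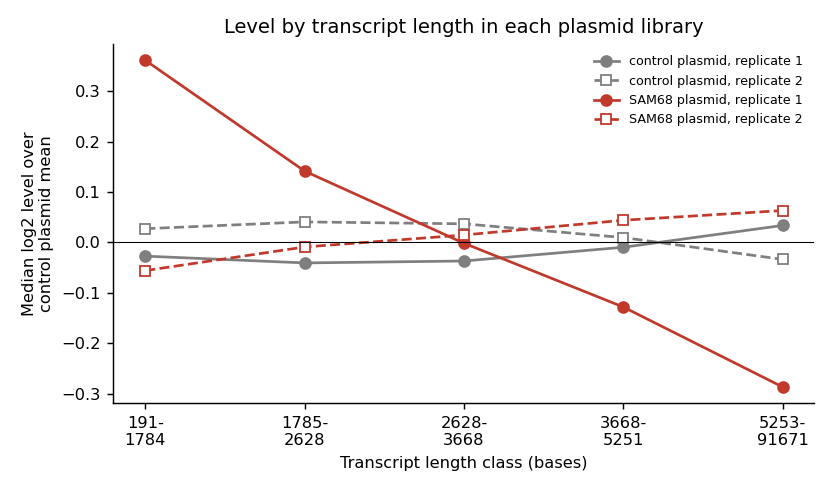
Median log2 level of genes in each of 5 transcript length classes (bases, horizontal axis), relative to the mean of both control plasmid libraries (vertical axis), with 1 line per library. SAM68 plasmid replicate 1 runs from 0.36 in the shortest class to −0.29 in the longest, while the other 3 lines stay between −0.06 and 0.06.

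KHDRBS1, the human gene of SAM68, was at 219.9 and 276.9 CPM in the control group and 530.6 and 593.3 CPM in the SAM68 group. The groups did not overlap, and the lowest SAM68 plasmid library lay 1.92-fold above the highest control. The means were 248 ± 40.3 (SD, n = 2) and 562 ± 44.3 CPM (SD, n = 2), a fold of 2.26 and 314 CPM more. In edgeR's quasi-likelihood test the effect on KHDRBS1 was a log2 fold change of 1.18 ± 0.24 (SE), with a 95% interval from 0.63 to 1.73 and an unadjusted p of 0.000838. After Benjamini-Hochberg adjustment over the 15658 genes tested, this p was 1 in edgeR and 0.0162 in DESeq2. Leaving out single libraries kept the log2 fold change between 1.02 and 1.35. With 2 libraries per group, the smallest two-sided p of an exact permutation test is 0.333.

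Scaled by transcript length, KHDRBS1 was at 139 and 169 TPM (the deposited level per length) with the control plasmid and at 267 and 381 TPM with the SAM68 plasmid. Its place among all rows above 0, ordered by TPM, went from 1123 and 909 to 541 and 381. The mean length of the KHDRBS1 transcripts, weighted by their estimated abundance, was 2870 and 2873 bases with the control plasmid and 2867 and 2884 bases with the SAM68 plasmid. It spanned 17.1 bases over all 8 U2OS libraries, and the plasmid groups overlapped.

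The siRNA gave the opposite direction in the same cell line. With control siRNA KHDRBS1 measured 244.7 and 248.7 CPM, and with SAM68 siRNA 80.7 and 48.6 CPM, or 26.2% of the control mean. The controls of both experiments thus lay between 219.9 and 276.9 CPM. The difference of the plasmid and siRNA effects was 3.11 ± 0.35 (SE) on the log2 scale, with an adjusted p of 0.112 in edgeR and 1.41e-13 in DESeq2. In edgeR it passed when SAM68 siRNA replicate 1 or replicate 2 was left out, at adjusted p-values of 0.00188 and 0.0152, and did not pass when any plasmid library was left out.

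**Figure D2:**
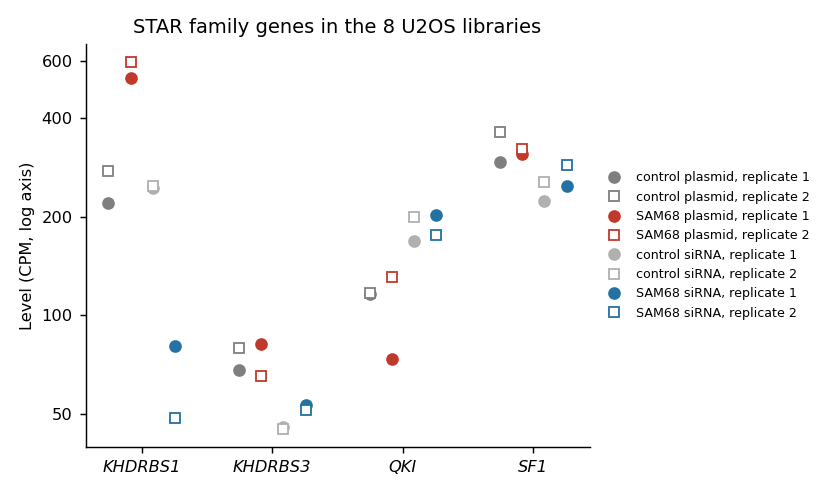
Levels of 4 STAR family genes in CPM (log axis) in each of the 8 U2OS libraries, 1 point per library, filled for replicate 1 and open for replicate 2. KHDRBS1 lies at 530.6 and 593.3 CPM in the SAM68 group and at 80.7 and 48.6 CPM with SAM68 siRNA, and the plasmid groups of the other 3 genes overlap.

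No other tested STAR gene had plasmid groups without overlap. KHDRBS3, which codes for the paralog SLM2, was at 68.2 and 79.3 CPM in the control group and 81.9 and 65.4 CPM in the SAM68 group. QKI, a STAR regulator of splicing and RNA stability, was at 117 and 117 against 73.6 and 131 CPM. SF1, the factor that recognises the branch point, was at 294 and 364 against 311 and 323 CPM. In all 3 genes the SAM68 plasmid values fell on both sides of, or inside, the control range, and their log2 intervals reached no further than −0.77 to 0.41. KHDRBS2 stayed at or below 0.253 CPM and was not tested. Per length, SF1 and KHDRBS1 were the highest of the family under the control plasmid, at 170 and 203 TPM for SF1, followed by KHDRBS3 at 64.7 and 73.0 TPM and QKI at 20.3 and 19.9 TPM. With the SAM68 plasmid KHDRBS1 lay above SF1, which was at 143 and 189 TPM.

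No gene of a protein that binds or modifies SAM68 passed the test. Of the 20 tested partner genes, 15 had a log2 fold change below 0, the median was −0.05 (−0.08 to −0.02 without single libraries) and none was called in edgeR. Among the members of all lists, an unadjusted p below 0.05 was reached by KHDRBS1, GDF15 and NDUFS7 only, and DESeq2 called KHDRBS1 alone. The corresponding median over all 15658 genes was 0.01. CREBBP, the acetyltransferase CBP, was at 100 and 121 CPM in the control group and 65.8 and 112 CPM in the SAM68 group. PRMT1, the methyltransferase that modifies SAM68 arginines, was at 313 and 374 against 406 and 331 CPM. HNRNPK and RBMX, splicing proteins that bind SAM68, were at 1129 and 1157 against 1109 and 1105 CPM and at 381 and 400 against 392.1 and 378.0 CPM. Groups without overlap, all lower, were found in 3 of 20, SRC and HNRNPK among them, where 7.94% of all tested genes were lower without overlap.

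No RNA reported as a SAM68 target was called. In all 12 tested the plasmid groups overlapped, whereas 18.0% of all tested genes had groups without overlap. CD44, a cell surface receptor whose variable exons are included through SAM68, was at 345 and 394 CPM in the control group and 349 and 383 CPM in the SAM68 group. BCL2L1, whose splice forms oppose or promote apoptosis, was at 213 and 241 against 252 and 215 CPM. CCND1, which codes for cyclin D1, was at 211 and 253 against 201 and 232 CPM.

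SRSF1, a splicing factor whose own RNA decay has been tied to SAM68, was at 514 and 591 against 504 and 587 CPM. MTOR, in which SAM68 affects intron retention, was at 110 and 130 against 87.2 and 123 CPM, and its SAM68 plasmid values were lower in replicate 1, the library in which long transcripts were low. NRXN2, a neurexin gene of the family spliced by the SAM68 paralogs, was at 28.4 and 29.9 against 29.9 and 33.6 CPM. The 12 log2 fold changes had a median of −0.02, and the highest was 0.12 (NRXN2). Leaving out control plasmid replicate 1 or 2 gave medians of −0.06 and 0.06, and leaving out SAM68 plasmid replicate 1 or 2 gave 0.02 and −0.11. Their 95% intervals together spanned −0.82 to 0.63, so a change of 2-fold lies outside the interval of each of the 12 genes. SMN1 and SMN2, near-identical copies whose exon 7 SAM68 can repress, were not read as single genes because reads split between their rows.

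Splicing factors other than SAM68 gave a similar picture. Of 38 tested genes of SR proteins and hnRNPs, 21 had a log2 fold change above 0, the median was 0.03 (0.01 to 0.07 without single libraries) and none was called in edgeR. SRSF7 was at 203 and 200 CPM in the control group and 277 and 214 CPM in the SAM68 group. HNRNPA2B1, the most abundant of the list, was at 1774 and 1572 against 1871 and 1799 CPM. Both had groups without overlap, with SRSF3 and HNRNPU also higher and HNRNPK lower, or 5 of 38 genes beside the 18.0% of all genes. Of 32 genes of the core spliceosome 23 were above 0, with a median of 0.09. That median became −0.08 without SAM68 plasmid replicate 1 and was 0.07 to 0.17 without any other single library. With an offset for transcript length it was 0.02. SNRPD1, an Sm ring protein, was at 165 and 164 against 243 and 167 CPM, high in replicate 1 alone.

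NORAD and Pumilio genes overlapped between the groups. NORAD was at 310 and 254 CPM in the control group and 262 and 316 CPM in the SAM68 group. Its log2 fold change was 0.04 with an interval of −0.47 to 0.55. PUM2, a Pumilio protein that represses mRNAs that carry its motif, was at 153 and 125 against 106 and 153 CPM. Its log2 fold change was −0.10, with an interval of −0.72 to 0.52. All 8 tested genes of NORAD, Pumilio and their partners overlapped, where 18.0% of all tested genes had groups without overlap. Their median log2 fold change was 0.01, which became −0.02 without control plasmid replicate 2 and −0.05 without SAM68 plasmid replicate 2.

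Reported Pumilio targets differed in direction between the SAM68 plasmid replicates, with median log2 levels, relative to the control plasmid mean, of −0.24 and 0.07. The control libraries were at 0.15 and −0.16, on opposite sides of 0 by construction, because they define that mean. Of 18 tested, 6 had a log2 fold change above 0 and the median was −0.05. Without SAM68 plasmid replicate 1 the median was 0.07 with 14 above 0, and without replicate 2 it was −0.24 with 3 above 0. Without control plasmid replicate 1 it was 0.05 with 12 above 0, and without control plasmid replicate 2 it was −0.20 with 4 above 0. CCNE2, which codes for cyclin E2, was at 19.99 and 13.7 CPM in the control group and 9.04 and 15.6 CPM in the SAM68 group. E2F3, a transcription factor of the cell cycle, was at 43.2 and 42.8 against 33.8 and 41.5 CPM, and BUB3, a spindle checkpoint protein, at 258 and 257 against 264 and 270 CPM. E2F3 and MCM4 were lower without overlap and BUB3 higher, or 2 and 1 of 18, beside 7.94% and 10.0% of all tested genes. The 95% interval of each log2 fold change included 0.

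Across the transcriptome few genes separated. edgeR called 1 row of 15658, or 0.00639%, at an adjusted p below 0.05. At an unadjusted p below 0.05 there were 86 rows, 0.549% of those tested, of which 54 were higher (0.345%) and 32 lower (0.204%), and without SAM68 plasmid replicate 2 there were 1034. Groups did not overlap in 1571 rows that were higher, 10.0% of all, and in 1244 that were lower, 7.94%. DESeq2 called 4 rows (0.0255%), those of KHDRBS1 and RGPD8 and copy rows of ZBED1 and SPRY3. RGPD8 and SPRY3 are named because of these calls, after their values were seen. On simulated counts, edgeR recovered 48% of 100 genes changed 2-fold and 99% of 100 genes changed 4-fold. Both sets were changed together and the counts lacked the length shift of SAM68 plasmid replicate 1, so these shares need not hold here. In the real libraries the SAM68 siRNA effect on KHDRBS1, a log2 fold change of −1.94, had an adjusted p of 0.185 in edgeR. Changes near 2-fold, and larger ones, can thus be missed by the adjusted test.

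The called row belongs to a further genomic copy of ZBED1, a gene of the pseudoautosomal region, which the X and Y chromosomes share. That row was at 0 and 0 CPM in the control group and 11.0 and 7.38 CPM in the SAM68 group, with an adjusted p of 0.0174 in edgeR. The call was lost in edgeR without control plasmid replicate 1, SAM68 plasmid replicate 1 or SAM68 plasmid replicate 2, at adjusted p-values of 0.0701, 0.122 and 0.0673. The opposite shift appeared in a second copy row, at 10.6 and 12.1 against 0 and 3.29 CPM. Summed over the 4 ZBED1 rows, the gene was at 21.3 and 24.2 CPM in the control group and 22.1 and 21.3 CPM in the SAM68 group, so the total overlapped. With control siRNA the called row was at 0 and 0 CPM, and with SAM68 siRNA at 9.22 and 8.49 CPM, the same direction as with the plasmid. Reads of near-identical copies cannot be assigned to one of them, and no fold is given for a row at 0 in the controls.

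Only 9 rows with a mean of at least 5 CPM had a log2 fold change beyond 1 in either direction, 7 of them without overlap. KHDRBS1 was the only one of the 9 outside families of near-identical copies. The others were 7 copy rows (of SRGAP2D, ZBED1, MAGED4B and SMN2 with 1 row each, of NBPF8 with 2, and 1 row without a symbol) and SRGAP2C, a member of the SRGAP2 duplication family. SRGAP2C was at 23.5 and 19.8 CPM in the control group and 2.44 and 16.1 CPM in the SAM68 group, while a copy row of SRGAP2D was at 0 and 0.368 against 17.04 and 4.22 CPM. The SRGAP2C row and the 2 rows of SRGAP2D together were at 101 and 76.8 against 82.5 and 88.0 CPM, a sum without a row of SRGAP2 itself. Rows of further genomic copies made up 10 of the 86 rows with an unadjusted p below 0.05 although they were 215 of the 15658 tested.

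**Figure D3:**
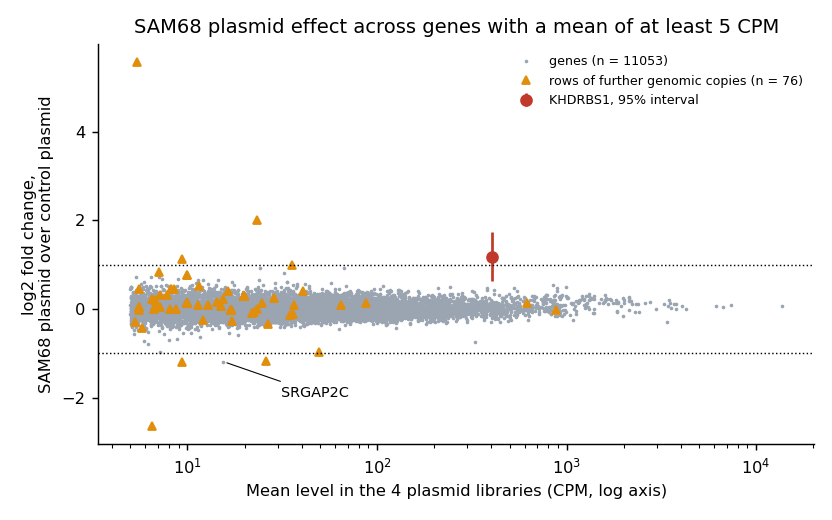
Log2 fold change of SAM68 plasmid over control plasmid (vertical axis) against the mean CPM of the 4 plasmid libraries (horizontal log axis) for the 11129 rows that averaged 5 CPM or more. Dotted lines mark 2-fold. KHDRBS1 (red, 95% interval 0.63 to 1.73) and SRGAP2C lie beyond 2-fold, with 7 rows of further genomic copies (triangles).

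For most genes the 95% interval of the difference in bulk RNA lay within 2-fold. The median standard error over the 11129 rows was 0.23 and the 95% interval reached a median of 0.51 to either side on the log2 scale, or 1.42-fold. In 10315 rows, 92.7%, the whole interval lay within 2-fold in both directions. These intervals hold for each gene alone and are not adjusted for the number of genes. They rest on a spread shared by all U2OS groups, which may be technical. Nor do they limit the effect in the cells that took up the plasmid.

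Outside the copy rows, and among rows without overlap whose higher group reached 5 CPM, the 5 higher rows with the smallest p-values after KHDRBS1 were not called, and each lay far below KHDRBS1 in CPM. The joined row of SCO2, a copper chaperone of respiratory complex IV, and its overlapping neighbour TYMP was at 1.63 and 2.76 CPM in the control group and 5.04 and 5.31 CPM in the SAM68 group (log2 fold change 1.21). LDHC, the testis form of lactate dehydrogenase, was at 3.62 and 3.36 against 6.52 and 4.85 CPM. MXD3, which dimerises with MAX, was at 8.44 and 9.25 against 15.5 and 12.4 CPM (log2 fold change 0.65). GNB1L and XAGE5 lay at log2 fold changes of 0.73 and 0.72, each without overlap. The SCO2 and TYMP row was highest in replicate 2 and the other 4 genes in replicate 1.

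Among genes with lower values, TCF7L2, a transcription factor of Wnt signalling, was at 36.6 and 36.8 CPM in the control group and 25.8 and 31.5 CPM in the SAM68 group (log2 fold change −0.35). CYB5RL was at 10.6 and 10.1 against 7.41 and 7.84 CPM (log2 fold change −0.44). BCORL1, a transcriptional corepressor, was at 17.1 and 20.3 against 12.7 and 16.1 CPM. MPPE1, ZNF264, CCDC13-AS2 and the joined row of STAG3L1 and STAG3L3 had log2 fold changes of −0.40, −0.35, −0.57 and −0.56. The antisense transcript and the joined row are uncertain because it is not known whether counting used the strand or how reads were split. The groups of these 7 rows did not overlap, but unadjusted p-values in edgeR reached from 0.0472 for CYB5RL to 0.108 for BCORL1. MPPE1 was lowest in SAM68 plasmid replicate 2. Each of the other rows was lowest in SAM68 plasmid replicate 1, the library in which long transcripts were low.

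Few genes had a small p with both the plasmid and the siRNA. Of the 86 rows, 10 also had an unadjusted p below 0.05 in the siRNA comparison, where 166 rows did, and 4 of the 10 had opposite signs. KHDRBS1 was the only one of the 4 above 5 CPM in its higher group. The others, named after their values were seen, were MYOZ2, LINC00965 and an NSF transcript row. MYOZ2, a muscle protein, was at 1.42 and 1.24 CPM in the control group and 0.815 and 0.506 CPM in the SAM68 group, and 0.189 and 0.116 against 0.592 and 0.599 CPM with the siRNAs. Tested directly, no gene had a difference of plasmid and siRNA effects at an adjusted p below 0.05 in edgeR (0.0% of 15658), 130 (0.83%) had an unadjusted p below 0.05, and DESeq2 called KHDRBS1 alone.

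Plasmid DNA can be sensed in the cytoplasm, and both groups received plasmid. Of 13 tested genes of nucleic acid sensing 5 were above 0, with a median log2 fold change of −0.03 (−0.15 to 0.03 without single libraries). IRF3, a transcription factor of this pathway, was at 24.5 and 31.1 CPM in the control group and 43.6 and 28.9 CPM in the SAM68 group. Of 30 tested interferon-stimulated genes 19 were above 0, with a median of 0.10 that became −0.04 without control plasmid replicate 2 and −0.06 without SAM68 plasmid replicate 2. ISG15, a ubiquitin-like protein, was at 1.91 and 3.18 against 5.11 and 3.37 CPM, and USP18, which removes it, was at 3.54 and 3.04 against 2.30 and 2.61 CPM. HERC5 was listed at 0 in all 4 libraries and OAS2, IFI27, RSAD2 and CXCL10 did not exceed 0.253 CPM.

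SAM68 has been tied to p53 and to apoptosis, and those lists held the member with the smallest p apart from KHDRBS1. GDF15, a secreted stress cytokine and p53 target, was at 0.638 and 0.874 CPM in the control group and 2.0 and 1.73 CPM in the SAM68 group. Its groups did not overlap, at a log2 fold change of 1.27 ± 0.40 (SE) and an adjusted p of 1 in edgeR. Of 23 tested p53 targets 15 were above 0 with a median of 0.01, which was 0.06 to 0.12 without single libraries. Without overlap 5 of the 23 were higher and 1 lower, beside 10.0% and 7.94% of all tested genes. CDKN1A, the cell cycle inhibitor p21, was at 72.7 and 75.7 against 97.6 and 75.9 CPM. BBC3, the BH3-only protein PUMA, was at 5.74 and 6.17 against 10.4 and 6.75 CPM. In both genes only replicate 1 lay clearly above the controls.

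Of 15 tested BCL2 family genes 12 were above 0, with a median of 0.13, and 4 were higher without overlap (BCL2A1, BAD, PMAIP1 and BBC3), beside 10.0% of all tested genes. The median was 0.03 without SAM68 plasmid replicate 1, 0.06 without control plasmid replicate 1 and 0.21 without SAM68 plasmid replicate 2. With an offset for transcript length it was 0.01. MCL1, a survival protein, was at 188 and 203 CPM in the control group and 159 and 228 CPM in the SAM68 group. BAX, which permeabilises mitochondria, was at 94.1 and 109 against 132 and 96.3 CPM.

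Lists of protein synthesis and respiration split between the SAM68 plasmid replicates. All 74 tested ribosomal protein genes had a log2 fold change above 0, with a median of 0.25. Yet 2 of the 74 were higher without overlap, beside 10.0% of all tested genes, and none was called in edgeR. Without SAM68 plasmid replicate 1 the median was −0.15 and 9 of 74 were above 0, and without SAM68 plasmid replicate 2 it was 0.55. Their summed level was 74925 and 74955 CPM in the control group and 107613 and 68448 CPM in the SAM68 group, so the SAM68 plasmid libraries lay on opposite sides of the controls. With an offset for transcript length the median was 0.02. RPL39 was at 360.2 and 346 against 561 and 386 CPM and RPLP2 at 284 and 346 against 544 and 338 CPM.

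The respiratory chain showed the same split. Of 58 tested genes 55 were above 0, with a median of 0.24. Without SAM68 plasmid replicate 1 the median was −0.08 with 14 above 0, and without SAM68 plasmid replicate 2 it was 0.52. With the offset for transcript length it was 0.05. NDUFS7, a complex I subunit, was at 9.36 and 11.2 CPM in the control group and 17.9 and 13.0 CPM in the SAM68 group. NDUFB7, another subunit, was at 23.0 and 29.7 against 49.9 and 31.2 CPM. All 12 snoRNA host genes, spliced noncoding transcripts that carry small nucleolar RNAs in their introns, were above 0 with a median of 0.28. That median was 0.00 without SAM68 plasmid replicate 1 and 0.59 without SAM68 plasmid replicate 2. The same offset gave these host genes a median of 0.09. Among them GAS5 was at 90.2 and 83.3 against 131 and 89.8 CPM and SNHG8 at 40.1 and 37.6 against 63.5 and 37.0 CPM.

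**Figure D4:**
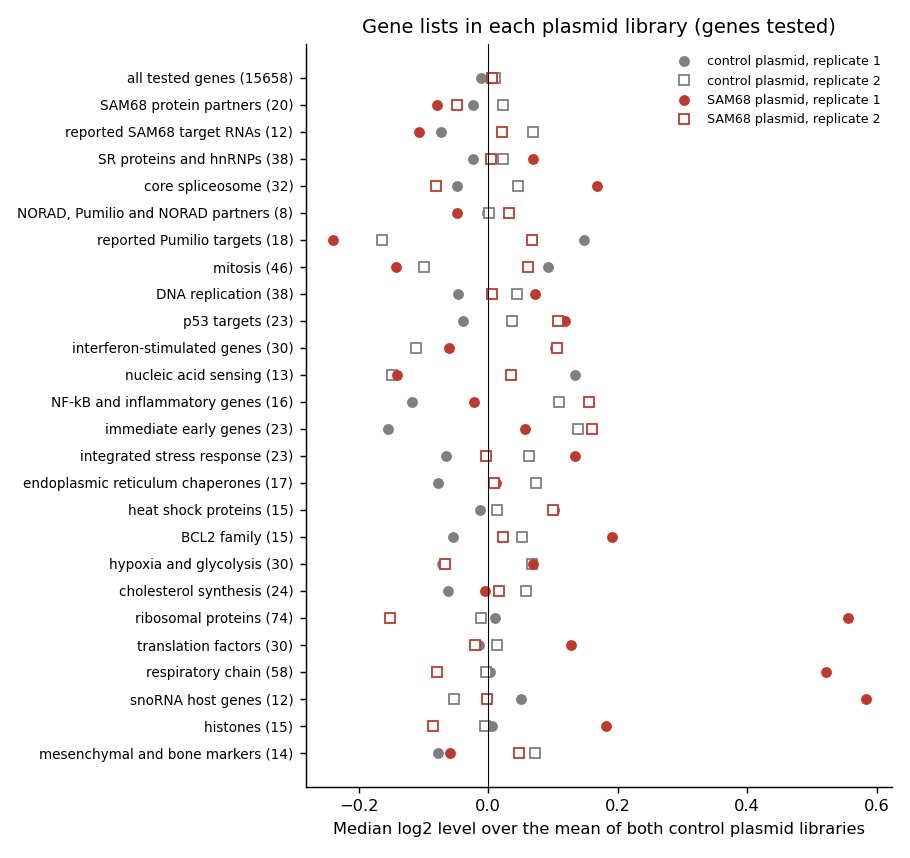
Median log2 level of each gene list relative to the mean of both control plasmid libraries (horizontal axis), with 1 point per plasmid library and the number of tested genes in parentheses. SAM68 plasmid replicate 1 stands between 0.52 and 0.58 for ribosomal proteins, the respiratory chain and snoRNA host genes, where the other 3 libraries lie between −0.15 and 0.05.

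No gene of cell division was called in edgeR or DESeq2. Of 46 mitosis genes 24 were above 0 with a median of 0.01. That median was 0.06 with 31 above 0 without SAM68 plasmid replicate 1, −0.15 with 16 above 0 without SAM68 plasmid replicate 2, 0.06 without control plasmid replicate 1 and −0.06 without control plasmid replicate 2. Of 38 DNA replication genes 26 were above 0 with a median of 0.03 (0.01 to 0.08 without single libraries). CCNB1, which codes for cyclin B1, was at 480 and 523 CPM in the control group and 518 and 512 CPM in the SAM68 group. PCNA, the sliding clamp of DNA polymerases, was at 272 and 293 against 294 and 302 CPM. In both genes the means differed by less than the control libraries did.

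Because SAM68 regulates splicing, transcript usage was read from the mean transcript length of each gene, in bases, weighted by estimated abundance. limma called none of 6625 genes (0.0%) at an adjusted p below 0.05, and 233 (3.52%) had an unadjusted p below 0.05. Without SAM68 plasmid replicate 2 limma called 100 genes, of which 6 were longer and the rest shorter. Without SAM68 plasmid replicate 1 it called 0, with 230 at an unadjusted p below 0.05. Groups did not overlap in 758 genes that were longer, 11.4%, and in 1113 that were shorter, 16.8%.

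No RNA reported as a SAM68 target passed the length test. CD44 transcripts averaged 4634 and 4628 bases with the control plasmid and 4646 and 4644 bases with the SAM68 plasmid, or 0.293% longer. BCL2L1 transcripts averaged 2551 and 2555 against 2524 and 2560 bases, and SRSF1 transcripts 5358 and 5374 against 5295 and 5366 bases. NRXN2 averaged 3567 and 3617 against 3637 and 3655 bases, 1.51% longer without overlap. Of 8 reported targets with a measurable length 3 were longer, none had an unadjusted p below 0.05, and 3 had groups without overlap, beside 28.2% of all genes tested in length.

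The genes with the smallest p-values were not among the reported targets. ATP8A2, a phospholipid flippase, averaged 9635 and 9635 bases with the control plasmid and 9447 and 9459 bases with the SAM68 plasmid, at an adjusted p of 0.188 in limma, which was 0.0388 without SAM68 plasmid replicate 2 and 0.449 without SAM68 plasmid replicate 1. SALL2, a zinc finger transcription factor, averaged 4293 and 4311 against 3877 and 4019 bases, 8.24% shorter, and the difference was −6.58% without SAM68 plasmid replicate 1. limma called it only without SAM68 plasmid replicate 2, at an adjusted p of 0.0144. PTBP3, a splicing repressor and the member of the SR and hnRNP list with the smallest p, averaged 7539 and 7421 against 6910 and 7065 bases, 6.59% shorter, and the difference was −5.55% without SAM68 plasmid replicate 1. Control siRNA libraries had PTBP3 lengths of 7028 and 6772 bases, near the SAM68 plasmid values. SAM68 siRNA libraries had 7446.5 and 7095 bases, longer than both, the opposite direction to the SAM68 plasmid. SALL2 averaged 4486 and 4503 bases with control siRNA and 4208 and 4246 with SAM68 siRNA, shorter as with the SAM68 plasmid. ATP8A2 averaged 9538.5 and 9544.5 bases with control siRNA, below both control plasmid libraries, and 9511 and 9541 with SAM68 siRNA.

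Longer transcripts were estimated for CFAP410, with 2261 and 2277 bases under the control plasmid and 2335 and 2361 under the SAM68 plasmid, and for ST3GAL4, a sialyltransferase, with 1762 and 1764 against 1785 and 1788 bases. The joined row of FMC1 and LUC7L2, the latter a U1 snRNP-associated splicing protein, averaged 2457 and 2493 against 2568 and 2583 bases, 4.07% longer. In each of these 3 the groups did not overlap and the adjusted p was 1 in limma. CFAP410 averaged 2316 and 2321 bases with control siRNA and 2277 and 2286 with SAM68 siRNA, the opposite direction to the plasmid. The FMC1 and LUC7L2 row averaged 2485 and 2497 against 2533 and 2504 bases, longer as with the plasmid. The siRNA groups of ST3GAL4 overlapped. Lengths in the siRNA comparison were not tested. A mean length does not show which exon or end of the transcript differs.

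**Figure D5:**
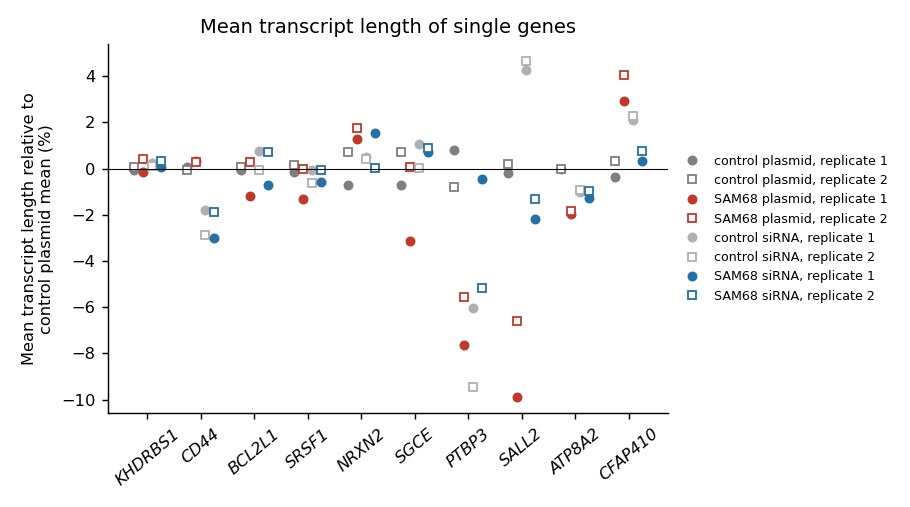
Mean transcript length of 10 genes in percent of the control plasmid mean (vertical axis, 0 marks no difference), 1 point per U2OS library. SALL2 and PTBP3 lie lower in both SAM68 plasmid libraries, by 8.24% and 6.59% on the fitted scale, while KHDRBS1, CD44 and BCL2L1 stay near 0. SALL2 and CFAP410 lie lower with SAM68 siRNA than with control siRNA, and PTBP3 lies higher.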

How the data were processed

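The 8 U2OS libraries (4 groups of 2) came from total RNA made into strand-specific poly(A) libraries, per the labels' protocols. The authors deposited RSEM estimates per RefSeq gene for each library, with columns for expected counts, TPM and transcript length, per the file headers. Expected counts deposited by the authors are estimated read counts that need not be whole and are not normalized. The TPM deposited by the authors are scaled for transcript length and library total. The length deposited by the authors (unit: bases, another kind of value) is the abundance-weighted mean of a gene's transcripts. The submitters' processing notes name STAR, RSEM and hg19. Versions, settings and whether strand was used in counting are, for all of them, not given in the sources used here.

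Expected counts were rounded, filtered with filterByExpr, scaled by TMM and fitted over all 8 libraries with edgeR's quasi-likelihood test (edgeR 4.0.16, R 4.3.3), Benjamini-Hochberg adjusted over 15658 genes with a threshold of 0.05. The biological coefficient of variation was 20.0%. Transcript length was tested with limma 3.58.1 (robust empirical Bayes) on log2 bases, for 6625 genes with at least 2 transcripts and a mean of at least 5 CPM. DESeq2 1.42.0, RLE scaling, no filter, the plasmid libraries alone, a replicate block and leaving out each library were the alternatives. A crossed pairing, summed copy rows and an offset for transcript length were chosen after seeing the data. The edgeR script was tested on simulated data with 15480 genes.

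Symbols were matched by gene number for 25321 of 27434 rows, from the RefSeq table of assembly GRCh38.p14 and GENCODE, another build than the files, used for names only. A further 1264 rows are further genomic copies of a gene, and 118 rows without a symbol held 0.0256 to 0.0400% of the counts. The chi-square per gene between replicates, for genes whose counts sum to 20 or more, was 13.8 (control plasmid) and 47.1 (SAM68 plasmid). It was 22.4 for control siRNA and 60.1 for SAM68 siRNA, whose libraries enter the same shared spread. All these values are beyond sampling noise, and all libraries were kept as separate samples.

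The members, gene lists and tests were chosen with earlier results of these data known. Genes named are KHDRBS1 and the STAR genes, called genes, the 10 higher and 10 lower genes with the smallest p among those without overlap and at least 5 CPM in the higher group, the 2 members of each list with the smallest p per direction, its 3 most abundant members, and the 5 longer and 5 shorter genes with the smallest p in length. Members of the target and partner lists and those without overlap are also given. Some genes that these rules name are not reported here. Lists are described by counts and medians, without a test.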

Additional observations from a re-analysis of the deposited data

How the results depend on the processing

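The number of rows edgeR called for the plasmid was 1. It was 15 without the filter (of which 7 higher, with 235 at an unadjusted p below 0.05), 4 in DESeq2 (38), 2 with the plasmid libraries alone, 0 with copy rows summed, and 0 to 4 when single libraries were left out (68 to 1034). The 1034 arose without SAM68 plasmid replicate 2, which leaves replicate 1 alone in its group, assumed to vary like the other groups. KHDRBS1 kept its direction in all 12 alternatives. Its log2 fold change was 1.17 without the filter, 1.18 in DESeq2 and 1.02 to 1.35 without single libraries. KHDRBS1 passed in DESeq2, which was not the only alternative in which it passed. For the difference of plasmid and siRNA effects edgeR called 0 rows, against 15 without the filter (273 at an unadjusted p below 0.05), 1 in DESeq2 (61), and 0 to 3 without single libraries (78 to 828). The KHDRBS1 difference was 3.13 without the filter and 3.08 in DESeq2, where it passed, and 2.79 to 3.43 without single libraries. Genes called in transcript length ranged from 0 to 100 without single libraries and were 0 in the other alternatives. The causes were not tested.

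The labels tie no replicate number to a shared culture or day, and the libraries were not taken as paired. The correlation of deviations between libraries of the same number was −0.16 for the plasmids and 0.56 for the siRNAs. With the replicate block edgeR called 0 rows, KHDRBS1 was at 1.18 and its difference from the siRNA effect at 3.16. With the pairing crossed, edgeR called 3 rows (149 at an unadjusted p below 0.05), and for the difference, at which KHDRBS1 had 3.16, 1 row (217).

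Log2 fold changes near 0 changed sign when single libraries were left out, with these ranges over the 4 libraries: KHDRBS3 (−0.17 to 0.15), QKI (−0.67 to 0.16), SF1 (−0.20 to 0.11), NORAD (−0.11 to 0.18), PUM2 (−0.40 to 0.14), CREBBP (−0.76 to 0.012). The same held for CD44 (−0.11 to 0.086), BCL2L1 (−0.080 to 0.14), CCND1 (−0.23 to 0.039), MTOR (−0.46 to 0.034), SNHG8 (−0.067 to 0.71), SRSF1 (−0.14 to 0.087). With the offset for transcript length CD44 was at 0.045 and SRSF1 at 0.053.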

Other observations

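Stress and metabolic lists outside the known roles of SAM68 were also read. Of 23 tested genes of the integrated stress response 16 had a log2 fold change above 0, with a median of 0.07, and the median was 0.00 without SAM68 plasmid replicate 1, 0.02 without control plasmid replicate 1 and 0.13 without either other library. ATF4, its central transcription factor, was at 674 and 737 CPM in the control group and 908 and 679 CPM in the SAM68 group. Of 23 immediate early genes 17 were above 0 (median 0.07). Without overlap 6 were higher and 1 lower, beside 10.0% and 7.94% of all tested genes. Without control plasmid replicate 1 the median was −0.07 with 8 above 0, and without control plasmid replicate 2 it was 0.31. ZFP36, which destabilises mRNAs, was at 4.96 and 4.004 against 6.45 and 5.10 CPM, and MYC overlapped at 243 and 291 against 272 and 283 CPM. None of these genes was called in edgeR or DESeq2 or had an unadjusted p below 0.05.

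Of 17 endoplasmic reticulum chaperones 11 were above 0 (median 0.05), of 15 heat shock proteins 12 (median 0.06), of 16 NF-kB and inflammatory genes 12 (median 0.07), of 30 hypoxia and glycolysis genes 17 (median 0.01), of 24 cholesterol synthesis genes 15 (median 0.03), of 30 translation factors 21 (median 0.05) and of 15 histone genes 10 (median 0.06). Medians turned below 0 without SAM68 plasmid replicate 1 for hypoxia and glycolysis (−0.07, with 8 of 30 above 0), translation factors (−0.02, 13 of 30) and histones (−0.08, 3 of 15). Without control plasmid replicate 1 they did so for NF-kB and inflammatory genes (−0.03, 6 of 16), hypoxia and glycolysis (−0.04), cholesterol synthesis (−0.03) and heat shock proteins (−0.01), and without SAM68 plasmid replicate 2 for NF-kB and inflammatory genes (−0.03) and cholesterol synthesis (−0.01). Chaperones of the endoplasmic reticulum ranged from 0.01 to 0.11 without single libraries. HSPA8, the constitutive chaperone, was at 3899 and 4653 CPM in the control group and 4203 and 4381 CPM in the SAM68 group. GAPDH, a glycolytic enzyme, was at 6719 and 7531 against 8601 and 6689 CPM. CCL2, a chemokine, was at 7.73 and 7.87 against 11.1 and 8.77 CPM, without overlap. EGLN3, a hypoxia-induced oxygen sensor, was at 3.83 and 4.10 against 2.74 and 3.21 CPM, also without overlap.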
